A study of Homo sapiens with 2 samples.

Results

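The Wnt pathway effectors and target genes are 10 listed genes: the 4 effectors CTNNB1, TCF7L2, TCF7 and LEF1, and the 6 feedback and stem cell targets AXIN2, ASCL2, LGR5, RNF43, ZNRF3 and NKD1. Each gene is read by 1 or more probe sets, small collections of probes along a transcript, and a probe set was taken when the platform annotation gives it to only the listed gene. This found 26 probe sets for 9 of the 10 genes, out of 19775 genes with a probe set. No probe set is listed for only TCF7, which was not analysed here. The list was drawn up with the differences between these same arrays in view, so the values below describe the genes and test nothing.

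RNA was read from cells labelled MKN28, the name of an established human gastric cancer cell line that is listed as a misidentified derivative of the line MKN74. One group, labelled Sox2 overexpression, was infected with a lentivirus carrying Sox2 and a puromycin resistance gene and selected in puromycin at 2 μg/mL for 3 to 5 days. The other group is labelled control, and what its cells received is not said. Each group is 1 sample of total RNA on 1 Affymetrix array, so no difference has a replicate error or a test, and no p-value is given. The values are intensities on a linear scale, and a difference is the log2 intensity of the array labelled Sox2 minus that of the control.

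In the canonical Wnt pathway, a Wnt ligand at its Frizzled and LRP receptors stops a destruction complex of AXIN, APC and GSK3 from marking beta-catenin for breakdown. Beta-catenin then enters the nucleus and binds the TCF/LEF factors, which hold target genes ready on DNA. Several targets feed back on the pathway, and others mark the dividing stem cells of the intestine and of gastric glands. SOX2 and the TCF/LEF factors share the HMG box, a DNA-binding domain that recognises related short sequences.

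Promoter sequences are shown for CTNNB1 and TCF7L2, the effectors with higher readings in the array labelled Sox2, and for the target RNF43. They are the 250 bases before a start site, 5′ to 3′ on the gene's strand, from RefSeq, build GRCh38.p14. The promoter table used here matched 5 of the 10 genes. Capitals mark any match, on either strand, to CTTTGA, to CTTTGT or to CATTGT. The first is a core sequence of TCF/LEF sites, the second fits TCF/LEF and SOX sites alike, and the last is a SOX core. The CTNNB1 stretch lies at chr3:41199255-41199504, plus strand. The TCF7L2 stretches lie before 2 of its 3 listed starts, at chr10:112949997-112950246, plus strand, and at chr10:113126383-113126632, plus strand. The RNF43 stretch lies at chr17:58417535-58417784, minus strand, before 1 of 2 listed starts.
CTNNB1: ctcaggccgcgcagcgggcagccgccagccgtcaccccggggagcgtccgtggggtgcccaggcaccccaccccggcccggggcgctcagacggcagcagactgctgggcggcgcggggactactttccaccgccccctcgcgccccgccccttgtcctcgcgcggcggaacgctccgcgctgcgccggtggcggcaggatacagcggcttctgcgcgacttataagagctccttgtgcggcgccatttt
TCF7L2 first start: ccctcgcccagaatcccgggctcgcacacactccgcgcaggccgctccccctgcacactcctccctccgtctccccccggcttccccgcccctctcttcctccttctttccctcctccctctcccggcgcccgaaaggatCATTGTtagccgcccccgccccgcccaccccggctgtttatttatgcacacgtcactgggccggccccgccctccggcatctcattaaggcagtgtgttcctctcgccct
TCF7L2 second start: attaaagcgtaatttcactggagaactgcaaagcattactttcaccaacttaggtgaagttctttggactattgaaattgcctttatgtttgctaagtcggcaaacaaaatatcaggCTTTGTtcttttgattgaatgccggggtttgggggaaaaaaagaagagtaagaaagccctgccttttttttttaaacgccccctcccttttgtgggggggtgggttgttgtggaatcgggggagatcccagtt
RNF43 first start: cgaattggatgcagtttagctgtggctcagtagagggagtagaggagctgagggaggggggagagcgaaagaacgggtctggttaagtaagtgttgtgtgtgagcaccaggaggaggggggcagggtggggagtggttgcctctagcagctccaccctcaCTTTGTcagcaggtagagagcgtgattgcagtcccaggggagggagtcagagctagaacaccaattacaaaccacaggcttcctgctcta
The CTNNB1 stretch holds none of these 3 motifs. Neither do those of LEF1, of the third TCF7L2 start and of the first TCF7 start, which are not shown. In all, 5 of the 9 promoters listed for CTNNB1, TCF7L2, TCF7, LEF1 and RNF43 hold a match. The first TCF7L2 stretch holds CATTGT, starting 110 bases before the start site, and the second holds CTTTGT, 133 bases before it. The RNF43 stretch holds CTTTGT, 90 bases before the start site. Of all 35116 RefSeq promoter stretches of this length, 11.2% hold CTTTGA, 13.7% CTTTGT and 9.29% CATTGT, and 29.2% hold any of the 3, so a match is common. It is a match of letters, not a binding site.

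The label could not be checked by its own gene. SOX2 read 172 in the Sox2-labelled array and 123 in the control by its brightest probe set, a log2 difference of 0.49, and its 3 other probe sets differed by 0.31, -0.023 and -0.46. The arrays are called by what their labels say. Of the defining markers of an epithelial line, EPCAM was far under the median of all values at 4.96 and 6.32, and the brightest probe sets of KRT8, KRT18, KRT19 and CDH1 lay between 37.7 and 91.3. The summed brightest probe sets of these 5 genes were 244 and 268, those of 6 mesenchymal genes 6973 and 5367, most of it VIM at 5833 and 4288. The 4 leukocyte genes summed to 160 and 156 and the 4 endothelial genes to 251 and 262. Of the mesenchymal genes, COL1A1 at 557 and 576 and COL3A1 at 418 and 374 were bright too. COL1A2 and DCN lay within the range of the keratins and CDH1, and LUM was under the median of all values. ACTB and B2M, genes of nearly all cell types, read only 120.1 and 109.2, and 50.9 and 69.1, by the probe sets standing for them. A low reading here therefore does not show that a gene was silent. These readings do not settle whether the line is epithelial, so MKN28 is only the name that the labels give. The identity of the cells was not tested. No marker was at 0, and the part of other cells in the differences below was not tested. The poly-A spike-ins, bacterial RNA put in ahead of labelling, had 24 of 24 probe sets lower in the Sox2-labelled array. Scaling the arrays on them would add 0.75 to each log2 difference, the median of all genes included, so every direction below is relative to that median, -0.0032 as deposited.

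No member stood 2-fold apart by its brightest probe set. The effectors CTNNB1 and TCF7L2 were higher in the array labelled Sox2 by 1.53-fold and 1.84-fold, while LEF1 and the 4 targets past the filter were lower by 1.07-fold to 1.55-fold. The filter asks that the higher of the 2 intensities reach 34.25, the median of all values. It was passed by 7 of the 9 genes and 19 of the 26 probe sets. Across all 14253 genes past the filter, 2.69% were at least 2-fold apart, 6.46% at least 1.5-fold higher and 3.77% at least 1.5-fold lower. The members past 1.5-fold were CTNNB1 and TCF7L2 upward and ASCL2 downward. The list was chosen from this contrast, so nothing is read from these counts.

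**Figure D1:**
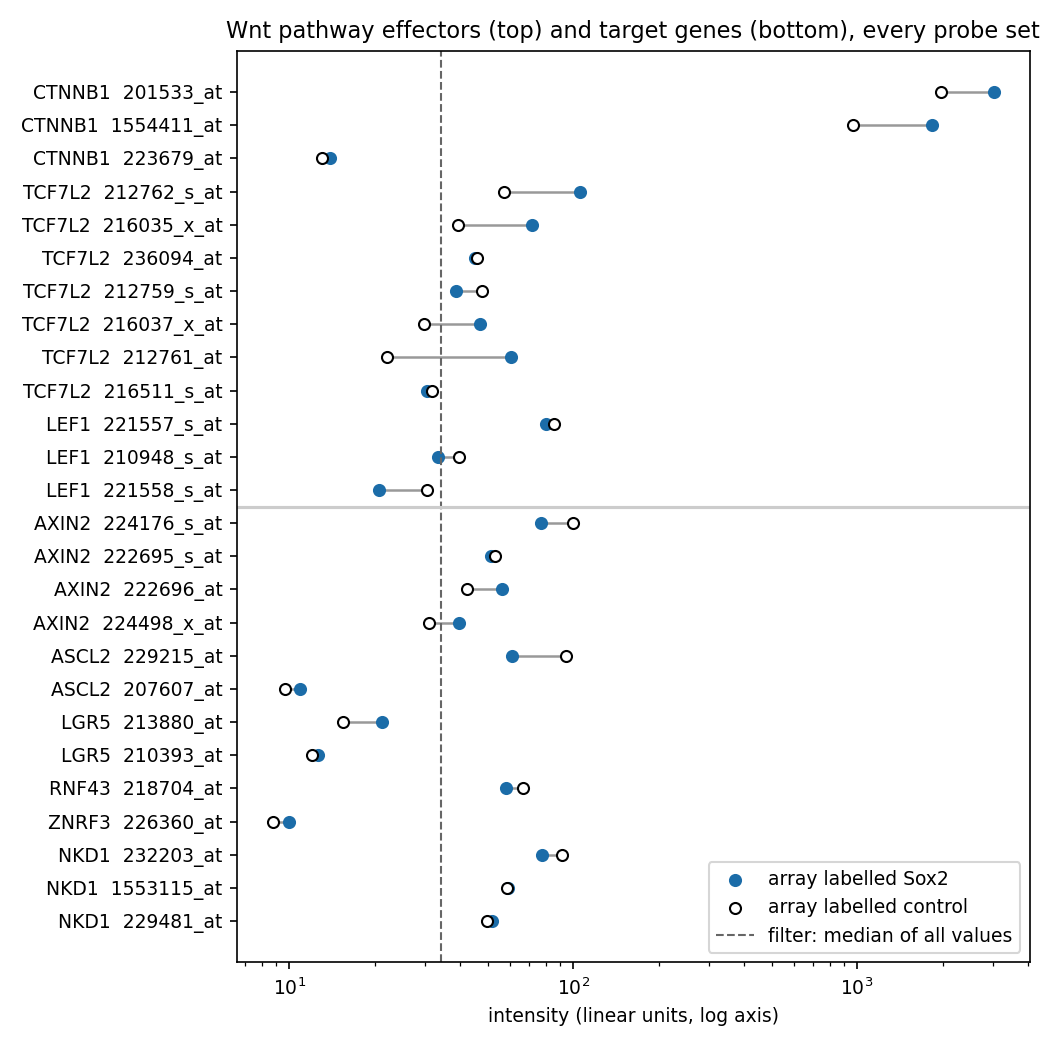
Intensity of all 26 probe sets of the 9 genes in the array labelled Sox2 (filled) and the control (open), on a log axis, with the filter at 34.25 dashed. The 5 widest gaps on this axis are those of 4 TCF7L2 probe sets and of the CTNNB1 probe set 1554411_at, and both LGR5 probe sets and the ZNRF3 probe set lie left of the filter.

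CTNNB1 encodes beta-catenin, the pathway's transcriptional effector and also a part of cadherin junctions. Its brightest probe set, 201533_at, read 3029 in the Sox2-labelled array and 1977 in the control, for a log2 difference of 0.62. A second, 1554411_at, read 1836 against 964, a difference of 0.93 or 1.90-fold. Both readings of the array labelled Sox2 were the higher ones. The third probe set, 223679_at, was under the filter at 13.9 against 13.0, a difference of 0.10.

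The only spread available for a single probe set is that between probe sets of the same gene, called the technical SD here. It also holds any difference between the transcripts or stretches that the probe sets read. From 3471 genes for which exactly 2 passed the filter, it came to a robust SD of 0.27 on the log2 scale. It is scaled from the median gap, so wide gaps count little, and the 90th percentile of the gaps was 0.77. The technical SD leaves out variation between cultures and arrays. Both CTNNB1 differences exceeded it. Genes this bright varied more, however. In the brightest of 20 level bins, which holds CTNNB1, the 713 genes had a median difference of 0.18 and a robust SD of 0.69, and 14.9% of them were at least 2-fold apart. Relative to that median, CTNNB1 stood 0.43 higher, which is less than the robust SD of its bin. The gap of 0.31 between its bright probe sets was near the median gap of 0.26 among genes with 2.

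TCF7L2 encodes TCF4, the TCF factor that pairs with beta-catenin in the gut epithelium. It had 7 probe sets, and they did not give 1 answer. The brightest, 212762_s_at, read 105.5 in the Sox2-labelled array and 57.2 in the control, for a log2 difference of 0.88. The next, 216035_x_at, read 71.7 against 39.2, a difference of 0.87. In both, the array labelled Sox2 read at least 1.83 times the control.

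Next in level came a pair with no such gap. Probe set 236094_at read 45.0 against 45.6, a difference of -0.021, and 212759_s_at read 38.7 against 47.8, a difference of -0.31. The second of these was lower in the array labelled Sox2 by slightly more than the technical SD.

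The remaining TCF7L2 probe sets were near or under the filter. Probe set 216037_x_at read 46.8 against 29.8, a difference of 0.65. Probe set 212761_at read 60.3 against 22.1, a difference of 1.45 or 2.73-fold, the only probe set of any member past 2-fold, against 2.49% of all 22938 1-gene probe sets past the filter. These passed only through the array where they were higher, so they had to differ. The last, 216511_s_at, was under the filter at 30.6 against 31.7.

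Of the 6 TCF7L2 probe sets past the filter, 4 were above 0 and 2 below, with a span of 1.75 between the highest and lowest difference. Among the 74 genes for which 6 passed, the median span was 0.76, and 2 genes, TCF7L2 included, had a span at least as wide. That span rests on 212761_at, which passed through 1 array alone. Over the 4 TCF7L2 probe sets past the filter on both arrays, 2 were above 0 and 2 below, the span was 1.19, and 26 of the 350 genes with 4 such probe sets spanned at least as much, their median being 0.49. At its level, the 713 genes of its bin had a robust SD of only 0.22, so the difference of the brightest probe set was wide for its level. That probe set belongs to the kind marked _s_at, which like _x_at may also read other transcripts. Without both kinds, the brightest TCF7L2 probe set was 236094_at, and the gene's difference was -0.021 in place of 0.88. The other TCF7L2 probe set of neither kind, 212761_at, differed by 1.45, so the probe sets left did not agree. TCF7L2 is also long, at 217432 bases against a median of 24443 for genes past the filter, and after centring on genomic length its difference was 0.84.

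LEF1 encodes the TCF/LEF factor first known from lymphoid cells, and it is itself a Wnt target. Its brightest probe set, 221557_s_at, read 80.1 in the Sox2-labelled array and 85.6 in the control, for a log2 difference of -0.095. A second, 210948_s_at, read 33.4 against 39.4, a difference of -0.24, and passed the filter only through the control. The third, 221558_s_at, was under the filter at 20.7 against 30.5, a difference of -0.56. All 3 were lower in the array labelled Sox2, but both past the filter differed by less than the technical SD. All 3 are _s_at probe sets, so LEF1 has no value without that kind.

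AXIN2 encodes a scaffold of the destruction complex. It is a target widely used as a readout of the pathway, and its induction dampens the signal. Its brightest probe set, 224176_s_at, read 77.0 in the Sox2-labelled array and 99.7 in the control, for a log2 difference of -0.37. The next, 222695_s_at, read 51.4 against 53.2, a difference of -0.049. The others ran the opposite way. Probe set 222696_at read 56.0 against 42.3, a difference of 0.40, and 224498_x_at read 39.5 against 31.0, a difference of 0.35, passing the filter only through the array labelled Sox2.

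All 4 AXIN2 probe sets passed the filter, 2 above 0 and 2 below, so the gene's direction follows from the probe set taken. The brightest gave -0.37, the mean of all 4 gave 0.082, and 222696_at, the only one of the 4 not marked _s_at or _x_at, gave 0.40. Their span of 0.78 was above the median of 0.55 among the 469 genes for which 4 passed, of which 123 spanned at least as much. The 3 past the filter on both arrays also spanned 0.78. Of the 1039 genes with 3 such probe sets, 153 spanned at least as much, their median being 0.39.

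NKD1 encodes an inhibitor that binds Dishevelled and is induced by the pathway. Its brightest probe set, 232203_at, read 77.5 in the Sox2-labelled array and 91.4 in the control, for a log2 difference of -0.24. The others hardly differed between the arrays. Probe set 1553115_at read 58.7 against 58.5, a difference of 0.0034, and 229481_at read 51.9 against 49.7, a difference of 0.063. All 3 differences were smaller than the technical SD, and their span of 0.30 was below the median of 0.43 among the 1294 genes with 3.

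RNF43 and ZNRF3 encode membrane ubiquitin ligases that remove Frizzled receptors from the cell surface. RNF43 had 1 probe set, 218704_at, at 57.8 in the Sox2-labelled array and 66.3 in the control, for a log2 difference of -0.20. This is under the technical SD and under the robust SD of 0.24 among genes of its level. ZNRF3 had 1 probe set, 226360_at, at 9.95 against 8.75, a difference of 0.19. At percentile 11.6 of all probe sets it was under the filter.

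ASCL2 and LGR5 mark intestinal stem cells. ASCL2 encodes a bHLH transcription factor that maintains them, and LGR5 a receptor for R-spondins, which strengthen Wnt signals. The brighter ASCL2 probe set, 229215_at, read 60.9 in the Sox2-labelled array and 94.3 in the control, for a log2 difference of -0.63 or 1.55-fold lower. This was the largest difference among the targets and more than the technical SD of 0.27 and the robust SD of 0.22 at its level. The other, 207607_at, was under the filter at 10.9 against 9.64, a difference of 0.17 the other way.

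Both LGR5 probe sets were under the filter. Probe set 213880_at read 21.2 in the Sox2-labelled array and 15.4 in the control, for a log2 difference of 0.46, and 210393_at read 12.6 against 12.0, a difference of 0.070. These levels lay at percentiles 26.2 and 16.8 of all probe sets, and with no detection call they do not show whether LGR5 was expressed.

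**Figure D2:**
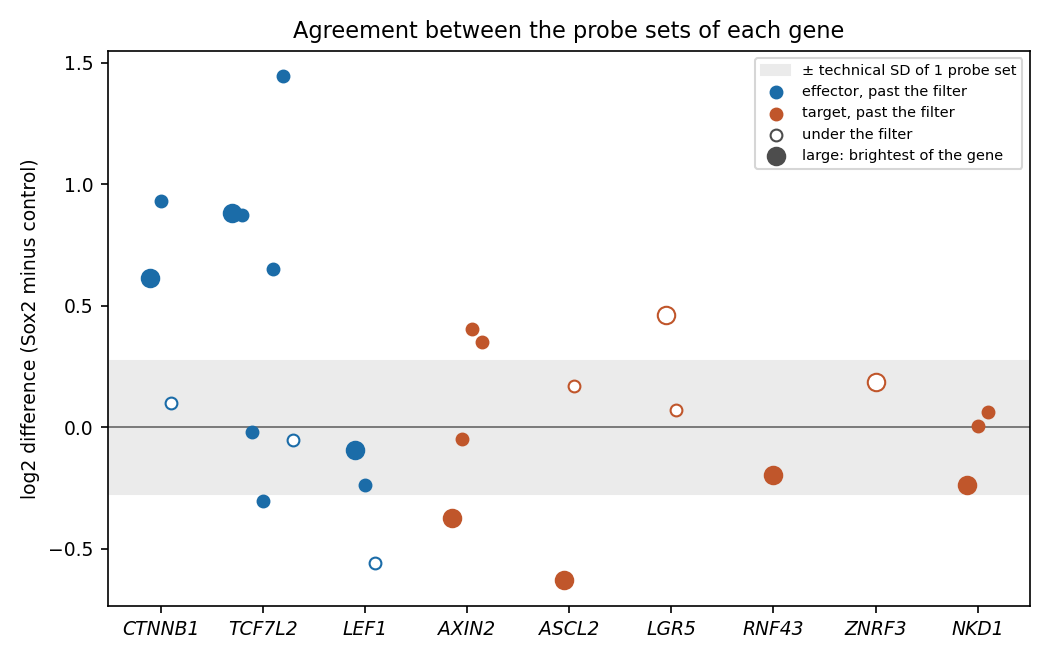
Log2 difference (Sox2 minus control, as deposited) of each probe set by gene, with filled points past the filter, large points the brightest of a gene, and the band at ± 0.27, the technical SD. TCF7L2, AXIN2 and NKD1 have probe sets past the filter on both sides of 0 as deposited, and ASCL2 has its probe set under the filter above 0. Scaling on the spike-ins would move every point up by 0.75 and every brightest probe set above 0.

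Agreement between probe sets could be read for the 5 members with several past the filter. CTNNB1 had both above 0, while TCF7L2, AXIN2 and NKD1 had some on each side. LEF1 had both below 0, but 1 of them passed through the control alone and so had to lie there, which leaves 1 probe set and no agreement to read. Of the 5495 genes on the array for which several passed, 43.1% had every one on a single side of 0.

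By the brightest probe sets, the medians of the effectors and of the feedback and stem cell targets stood apart. The 3 effectors had a median log2 difference of 0.62 and the 4 targets past the filter a median of -0.31, which puts the effector median 0.92 above the target median. The effector side of this gap rests on CTNNB1 and TCF7L2, since LEF1 lay with the targets at -0.095. The effector median is the value of CTNNB1, which lay within the robust SD of its level bin. The target median lies between NKD1 at -0.24, under the technical SD, and AXIN2 at -0.37. The direction of AXIN2 follows from the probe set taken. The 4 targets all lay below 0, as did 50.4% of all genes, and with the arrays scaled on the spike-ins all 4 lay above 0 while still below the median of all genes.

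Counted by probe set the targets lay on both sides of 0. Of the 9 target probe sets past the filter, 5 were below 0 and 4 above, with a median of -0.049, and 49.9% of all 1-gene probe sets past the filter were below 0. The AXIN2 probe set 224498_x_at is among the 4 above 0 and had to lie there. Of the 10 effector probe sets past the filter, 6 were above 0 and 4 below, with a median of 0.63. The LEF1 probe set 210948_s_at is among the 4 below 0 and had to lie there. The 6 are those of CTNNB1 and TCF7L2, and each was at least 1.5-fold higher, as were 6.37% of all such probe sets, but 2 of them passed through the Sox2-labelled array alone, so this count supports nothing. Of the 7 effector probe sets past the filter on both arrays, 4 were above 0 and 3 below, with a median of 0.62, and of the 8 target probe sets 3 were above 0 and 5 below, with a median of -0.12. The 1 target probe set at least 1.5-fold lower was that of ASCL2, against 3.41% of all.

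The gap kept its sign under each of the 11 alternatives that give it, but not its size. Spike-in scaling and median centring move every gene alike, so they could not change it. The filters at the 75th percentile and on the mean kept the same 7 members, so the gap stayed at 0.92 there too. Averaging the probe sets of each gene gave 0.55, with the target median at -0.057 over 3 targets, since ASCL2 then missed the filter, and leaving out _x_at and _s_at probe sets gave 0.52. In that setting CTNNB1 was the only effector above 0 by its brightest probe set.

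**Figure D3:**
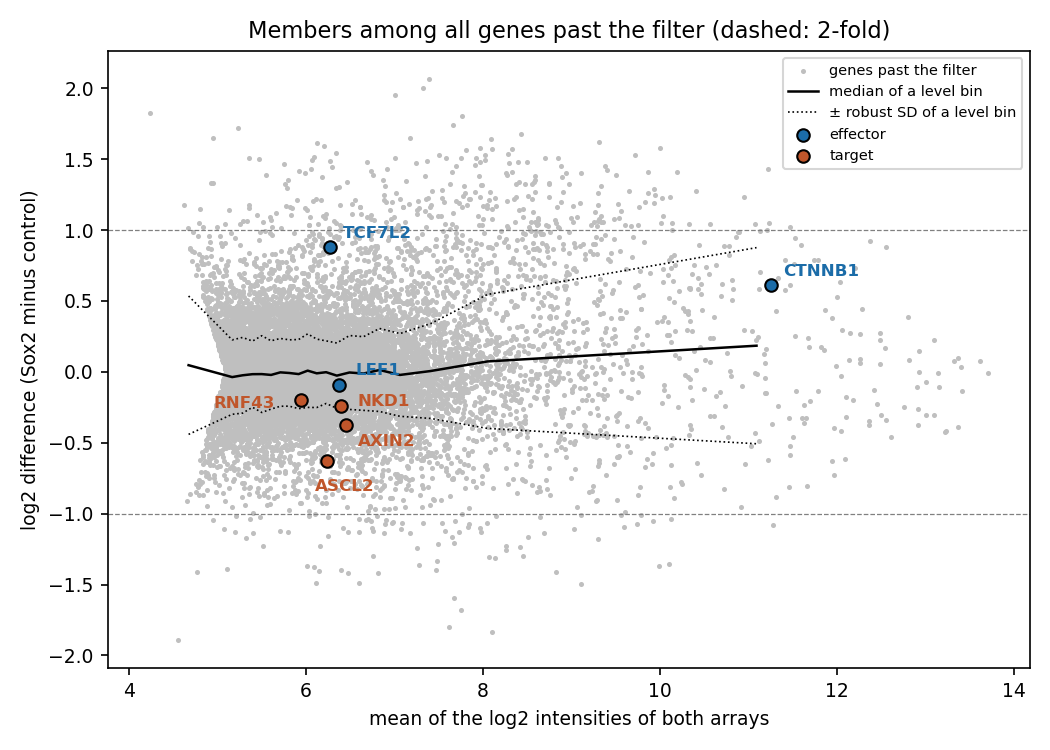
Log2 difference (Sox2 minus control, as deposited) against mean log2 intensity for the 14253 genes past the filter, with the median and ± robust SD of 20 level bins and the 7 members past the filter labelled. CTNNB1 at 0.62 lies within the ± 0.69 of its bin, TCF7L2 at 0.88 and ASCL2 at -0.63 outside their ± 0.22; adding 0.75 for the spike-ins would lift all points alike.

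**Figure D4:**
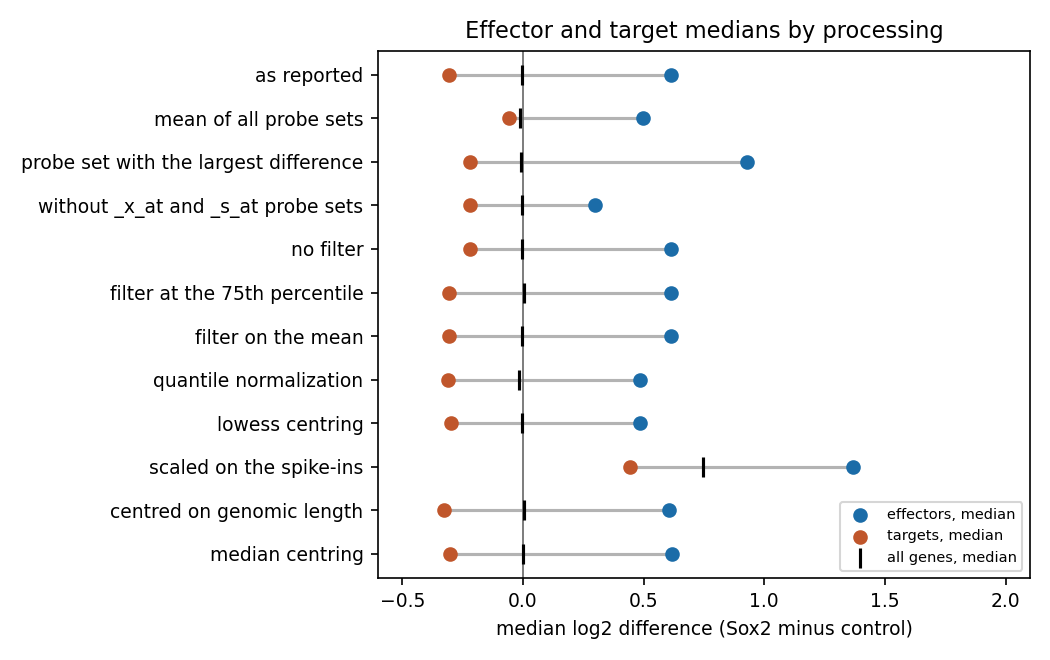
Median log2 difference of the effectors and of the targets, with the median of all genes, under the reported processing and 11 alternatives. The effector median is above the target median in every line shown. Spike-in scaling and median centring shift every gene alike, so they could not change that. Scaling on the spike-ins puts the target median above 0 at 0.44 but below that of all genes, 0.75.

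The rest of the pathway was read through 8 lists by role, 113 genes in all with the members, of which 106 had a probe set and 89 passed the filter. None was 2-fold apart by its brightest probe set, against 2.69% of all genes. At least 1.5-fold, 5 were higher and 4 lower, where the 6.46% and 3.77% of all genes are close to these shares of 89. The 89 genes had a median log2 difference of -0.014. In the counts by side of 0 below, DKK1 and WNT8B passed the filter only through the control. FRZB and FBXW11 passed only through the array labelled Sox2. Each of these genes had to lie on the side of the array it passed through.

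Among the ligands, 14 of 19 passed the filter, 5 above 0 and 9 below, with a median of -0.042. The largest difference was that of WNT2, a ligand of canonical signalling, whose only probe set read 44.8 in the Sox2-labelled array and 85.2 in the control, 1.90-fold lower. Ligand release and the R-spondins held 4 genes past the filter, 2 on each side of 0. RSPO3, an R-spondin, differed most there at 61.0 against 78.6, a difference of -0.36.

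Of the receptors and co-receptors, 11 of 18 passed the filter, 5 above 0 and 6 below, with a median of -0.050. RYK, a receptor tyrosine kinase-like Wnt receptor, differed most, at 911 against 529 or 1.72-fold higher, but the second probe set that passed the filter read 56.8 against 73.3. Of the 9 secreted inhibitors past the filter, 3 were above 0 and 6 below, with a median of -0.064. DKK1, which blocks LRP co-receptors, differed most at 31.9 against 42.7, a difference of -0.42 by its only probe set. That probe set passed the filter only through the control, so it had to lie below 0.

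Dishevelled and the destruction complex had 13 of 15 genes past the filter, 10 above 0 and 3 below, with a median of 0.13. GSK3B, the kinase that phosphorylates beta-catenin for breakdown, read 845 in the Sox2-labelled array and 452 in the control by its brightest probe set, 1.87-fold higher. A second read 495 against 238, a difference of 1.06. Its 3 other probe sets differed by 0.0068, 0.31 and 0.54, the last under the filter. The one at 0.31 read 39.4 against 31.7. It passed only through the array labelled Sox2, so it had to lie above 0.

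The nuclear effectors and cofactors other than the members had 13 genes past the filter, 8 above 0 and 5 below, with a median of 0.12. CREBBP, a histone acetyltransferase that beta-catenin recruits, differed most at 130 against 68.8, 1.88-fold higher. Its 3 other probe sets differed by -0.12, 0.21 and 0.34. The last read 39.98 against 31.49 and passed only through the array labelled Sox2, so it had to lie above 0. The target genes other than the members had 15 past the filter, 6 above 0 and 9 below, with a median of -0.064. SMOC2, a matrix protein of intestinal stem cells, differed most at 111 against 188, 1.70-fold lower, and its second probe set, under the filter, read 23.3 against 26.1. Of the 6 cadherin complex partners of beta-catenin past the filter, 2 were above 0 and 4 below, with a median of -0.028. CTNNA1, alpha-catenin, differed most at 69.1 against 55.3, and its 2 further probe sets that passed the filter gave differences of -0.28 and 0.82. The last read 58.05 against 32.96 and passed only through the array labelled Sox2, so it too had to lie above 0.

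**Figure D5:**
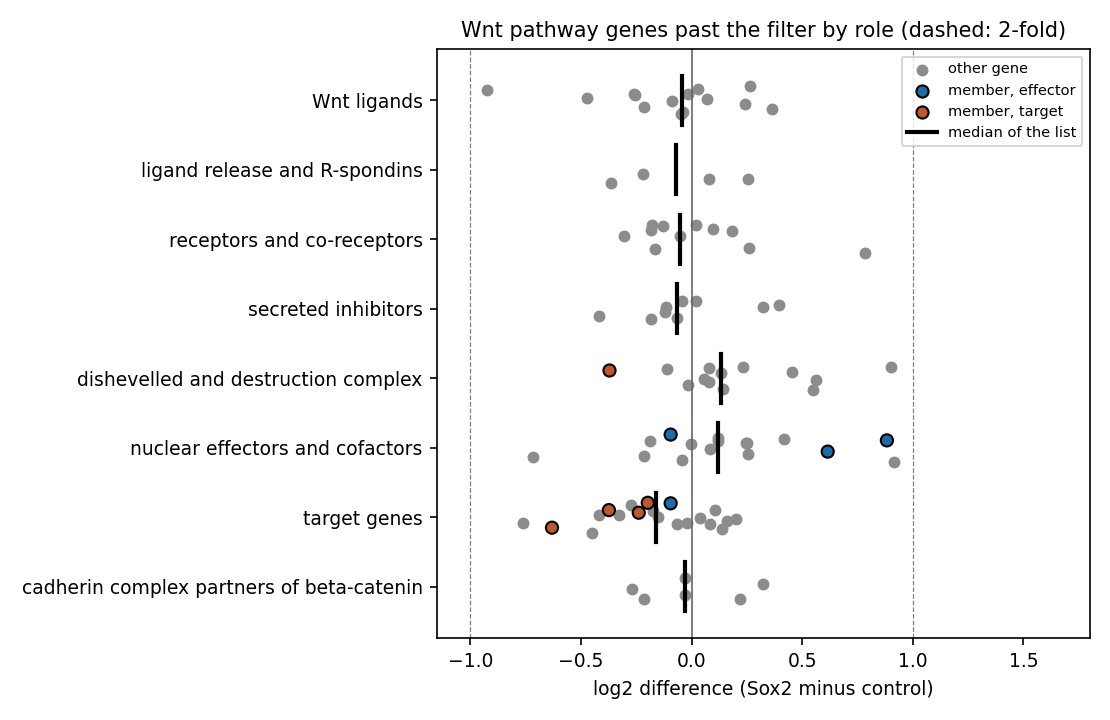
Log2 difference (Sox2 minus control, as deposited) of the brightest probe set of each pathway gene past the filter, by role, with members coloured and the median of each list as a bar. All points lie inside the dashed 2-fold lines, and the list medians run from -0.16 for the target genes to 0.13 for dishevelled and the destruction complex; scaled on the spike-ins, the medians of all 8 lists would be above 0.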

How the data were processed

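The authors deposited probe set intensities on a linear scale, 1 column per sample. RMA is the only tool named, per the submitters' processing notes, with version, settings and the step that left linear values not given in the sources used here. Medians were 34.25 and 34.26. The deposited intensities were taken to log2 as they stood, and probe sets were named by the platform annotation of 54675 probe sets, 41091 of them with 1 gene. The probe set with the highest mean log2 stood for its gene, and genes were kept if that probe set read 34.25 or more on at least 1 array. The size rule was 2-fold. The number of arrays limits the precision, and no test was possible with 1 sample per group.

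The members and lists were chosen with earlier results of these data known. Genes named outside the members are, for each role list, the one with the largest difference past the filter. The counting and the technical SD were tested on simulated data. For the counting, each simulated gene had a single probe set and the same noise at every level. The filter, the choice of probe set and the wider spread of bright genes were therefore not tested. Alternatives covered the probe set taken, cross-hybridising probe sets, the filter, quantile, lowess (span 0.3) and spike-in scaling, and a 1.5-fold rule. Median centring, centring on genomic length and probe set counts past the filter on both arrays were chosen after seeing the data. Python 3.11.15, numpy 2.4.6, pandas 2.3.3 and statsmodels 0.14.6 were used, and matplotlib 3.10.9 for plots.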

Additional observations from a re-analysis of the deposited data

How the results depend on the processing

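Of the 12 alternatives, the 3 filters, quantile normalization, lowess centring and both added centrings left each main value within the technical SD of 0.27 or, for counts, within 1.5 times. Averaging probe sets gave an effector minus target gap of 0.55 and 106 genes at least 2-fold apart in place of 384. Taking the probe set with the largest difference brought the effector median to 0.93, with 1 member (TCF7L2) and 2 pathway genes at least 2-fold apart. Without _x_at and _s_at probe sets the effector median was 0.30, the gap 0.52 and 233 genes were 2-fold apart, with fewer genes measured. Scaled on the spike-ins, which adds 0.75 throughout, the effector median was 1.37 and the target median 0.44, with 2 members (CTNNB1 and TCF7L2), 18 pathway genes and 2872 genes at least 2-fold apart. Of the last, 99.9% were higher, against 76.0% as deposited, 64.5% after quantile normalization and 59.4% with averaged probe sets. The 1.5-fold rule counted 3 members, 9 pathway genes and 1458 genes. Among single members and list medians, 24 of 183 values moved by more than the technical SD and 22 changed sign. No paired analysis was possible because each group holds 1 sample. Signal well under the median of all values limits LGR5 and ZNRF3, and no replicate error limits what any difference shows.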
